A study of Homo sapiens with 40 samples.

Results

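Lysosome and autophagy genes were described in EndoC-βH3 cells, a human beta-cell line, from the chromatin profiles of the non-senescent and senescent states. The group holds 37 genes of 19663 protein-coding genes with an annotated start site. They were chosen by name, as acid hydrolases, lysosomal membrane proteins, subunits of the vacuolar proton pump and components of autophagy. For each gene, the H3K27ac peak and the CTCF peak with the highest mean signal within 2 kb of any of its GENCODE 44 protein-coding start sites were taken, together with the listed enhancers to which it was the nearest gene, within 100 kb. The rule uses no difference between the states, though the genes were chosen with earlier results of these data known.

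The line was derived from fetal human pancreas and immortalised with transgenes for SV40 Large T antigen and for hTERT, and it also carries CreER, a recombinase that removes the immortalising transgenes once 4-hydroxytamoxifen (4-OHT) is added. Both states came from this line, and the labels give the genotype of both as WT. Non-senescent cells were the untreated control, and senescent cells were treated with 4-OHT for 3 weeks, so the drug, the excision and the senescent state cannot be told apart. Chromatin immunoprecipitation and sequencing (ChIP-seq) covered 4 targets. For H3K27ac, the acetylation found on active regulatory DNA, and for CTCF, the zinc-finger protein that anchors chromatin loops, there were 3 libraries of each state. For H3K4me1, the methylation typical of enhancers, and for Rb, the retinoblastoma tumour suppressor, there were 2 of each. The 20 immunoprecipitated libraries were matched by 20 inputs. The labels do not say whether libraries of a group came from separate cultures.

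The level used for H3K27ac and CTCF is the authors' mean over the 6 libraries of both states, in counts divided by size factors. It tells how much of the mark a peak held, and not whether it changed with senescence. It has no spread between libraries, and the depth of each library is unknown here. Differences between the states were read only from the enhancer list of each state and from the regions called for Rb in senescent against non-senescent cells, and none of them has a replicate check. Levels are compared between genes per kb of peak. The labelled cell type was checked with H3K27ac at marker genes: all 9 beta-cell markers had a peak at a start site, at 182 to 510 per kb. Of the markers of other cells, 1 of 4 acinar genes (CPA1), 1 of 3 ductal genes (KRT19), 0 of 3 mesenchymal genes and 1 of 3 immune genes (CD68) had one. The levels of CPA1 (298 per kb) and CD68 (238 per kb) were within the range of the beta-cell markers, and that of KRT19 (122 per kb) was below it.

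Lysosomes are acidic organelles in which hydrolases break down proteins, lipids and sugars. The vacuolar ATPase (V-ATPase) pumps the protons that keep them acidic, through a membrane sector, V0, driven by a cytosolic sector, V1. Autophagy delivers cytoplasmic cargo to them in vesicles that carry lipid-linked proteins of the ATG8 family. The transcription factor TFEB and its relatives activate many of these genes through an E-box of the type TCACGTGA, often called the CLEAR element. The lysosomal beta-galactosidase encoded by GLB1 underlies the senescence-associated beta-galactosidase stain.

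An E-box of the type TCACGTGA was found at the start of pump subunits, membrane proteins and hydrolases of the group. RefSeq promoter windows on GRCh38.p14, from 250 bases before to 50 bases after the start, were matched by symbol for 30 of the 37 genes. The 8 letters TCACGTGA, which read the same on both strands, were found in 6 of these 30 genes (20%), against 1.71% of the 15307 protein-coding genes with a window. Among genes that also had an H3K27ac peak at a start site, 2.31% held the motif. The 6 genes were ATP6V1G1 and ATP6V0D1, subunits of the proton pump, LAMP1, a major glycoprotein of the lysosomal membrane, GAA, the glycogen-degrading alpha-glucosidase, MCOLN1, a lysosomal cation channel, and CTSA, a carboxypeptidase that protects beta-galactosidase. None of the 8 autophagy genes held it in this window. No enrichment test was made, and a match of letters does not show that a factor was bound.

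The sequences around the motif are shown so that the site and its neighbouring bases can be compared between the 6 genes. They are printed 5′ to 3′ on the strand of the gene, from RefSeq on GRCh38.p14, with the motif in capitals and its surroundings kept to 30 bases where the site falls in an annotated exon.
ATP6V1G1, chr9:114587699-114587728, plus strand, in an exon: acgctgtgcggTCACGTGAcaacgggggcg
LAMP1, chr13:113297150-113297238, plus strand, upstream: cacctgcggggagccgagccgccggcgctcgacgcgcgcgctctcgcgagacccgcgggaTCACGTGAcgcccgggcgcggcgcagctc
LAMP1, chr13:113297226-113297255, plus strand, in an exon: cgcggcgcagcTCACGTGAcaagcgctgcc
ATP6V0D1, chr16:67481182-67481277, minus strand, upstream: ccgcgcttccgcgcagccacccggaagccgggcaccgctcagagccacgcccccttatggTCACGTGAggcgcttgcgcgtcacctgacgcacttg
GAA, chr17:80101444-80101532, plus strand, upstream: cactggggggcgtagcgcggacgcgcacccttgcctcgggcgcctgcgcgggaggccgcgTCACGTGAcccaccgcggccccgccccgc
GAA, chr17:80101538-80101567, plus strand, in an exon: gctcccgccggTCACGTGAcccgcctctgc
MCOLN1, chr19:7522522-7522619, plus strand, upstream, with both of its sites: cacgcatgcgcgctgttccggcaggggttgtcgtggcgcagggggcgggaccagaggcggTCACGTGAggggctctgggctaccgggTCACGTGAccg
CTSA, chr20:45891298-45891327, plus strand, in an exon: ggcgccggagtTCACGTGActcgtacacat

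LAMP1, GAA and MCOLN1 each held a pair of sites, which gave 9 sites in 6 genes. The first base of the motif lay between 2 and 77 bases before the RefSeq start, with a median of 32. In 3 genes, ATP6V1G1, GAA and MCOLN1, at least 1 site was flanked by G and C, the longer palindrome, against 0.666% of all genes with a window. All 9 sites lay inside H3K27ac peaks, as did every site of the other pathway genes named below. In each of the 6 genes the chosen peak covered the canonical start, so sites this near to it fell inside by position. The 3 sites of ATP6V0D1 and GAA lay inside CTCF peaks as well. Of the 59 other lysosome and autophagy genes with a window, from a list of 80, the motif was found in 5 (8.47%): IGF2R, the receptor that carries hydrolases to the lysosome, GNPTG, a subunit of the enzyme that tags them for that route, CLN3, a lysosomal membrane protein, GALNS, a sulfatase, and ATG3, an enzyme of ATG8 lipidation. In 3 of these, IGF2R, GNPTG and GALNS, a site was flanked by G and C as well.

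**Figure D1:**
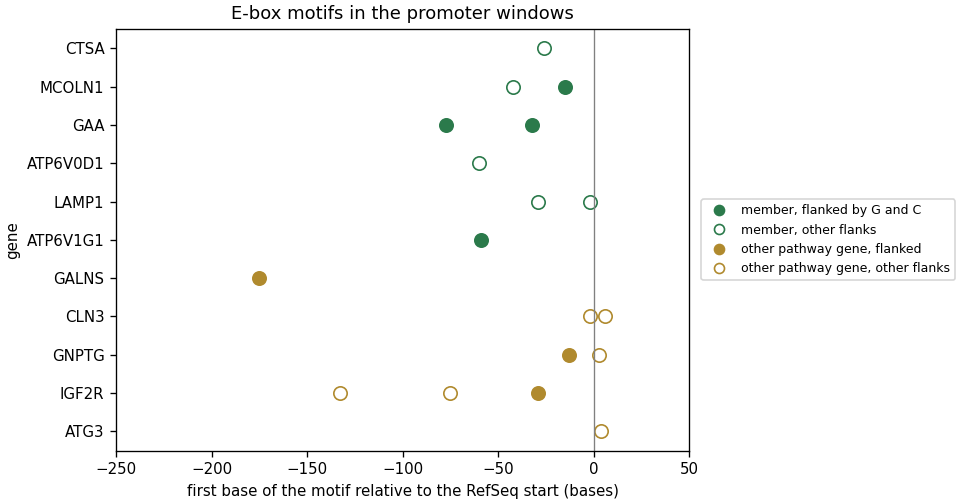
Position of each TCACGTGA motif in the promoter window, in bases from the RefSeq start on the x axis, for 6 member genes and 5 other pathway genes on the y axis; filled points are flanked by G and C. The member sites sit between 77 and 2 bases before the start, and those of the other genes between 175 bases before and 6 bases after it.

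H3K27ac marked the start of every gene of the group. A peak lay within 2 kb of a start site in all 37 genes, against 66.4% of protein-coding genes, and in 76 of the 80 other lysosome and autophagy genes. The median mean signal was 739, beside 601 over the 13059 genes with a peak and 606 in the 76 other lysosome and autophagy genes. Per kb, the median was 229 with quartiles of 155 and 324, beside 184 with quartiles of 115 and 267 over all genes with a peak. The other lysosome and autophagy genes had a median of 187 per kb, with quartiles of 130 and 266, close to all genes. The sets differ in their mix of roles, so this contrast is not one between like genes. By role, the median was 165 per kb in the acid hydrolases of the group and 151 in other lysosomal enzymes. In lysosomal membrane proteins it was 272, beside 255 in other membrane or transport genes. The V-ATPase and autophagy genes of the group, at 250 and 321, were farther above the other genes of those roles, at 123 and 213. In all, 21 of the 37 genes were above the median of all genes with a peak, 5 were above the 90th percentile and 1, CTSB, was below the 10th. The chosen peak covered the canonical start in 35 of the 37 genes, the exceptions being SQSTM1 and BECN1.

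**Figure D2:**
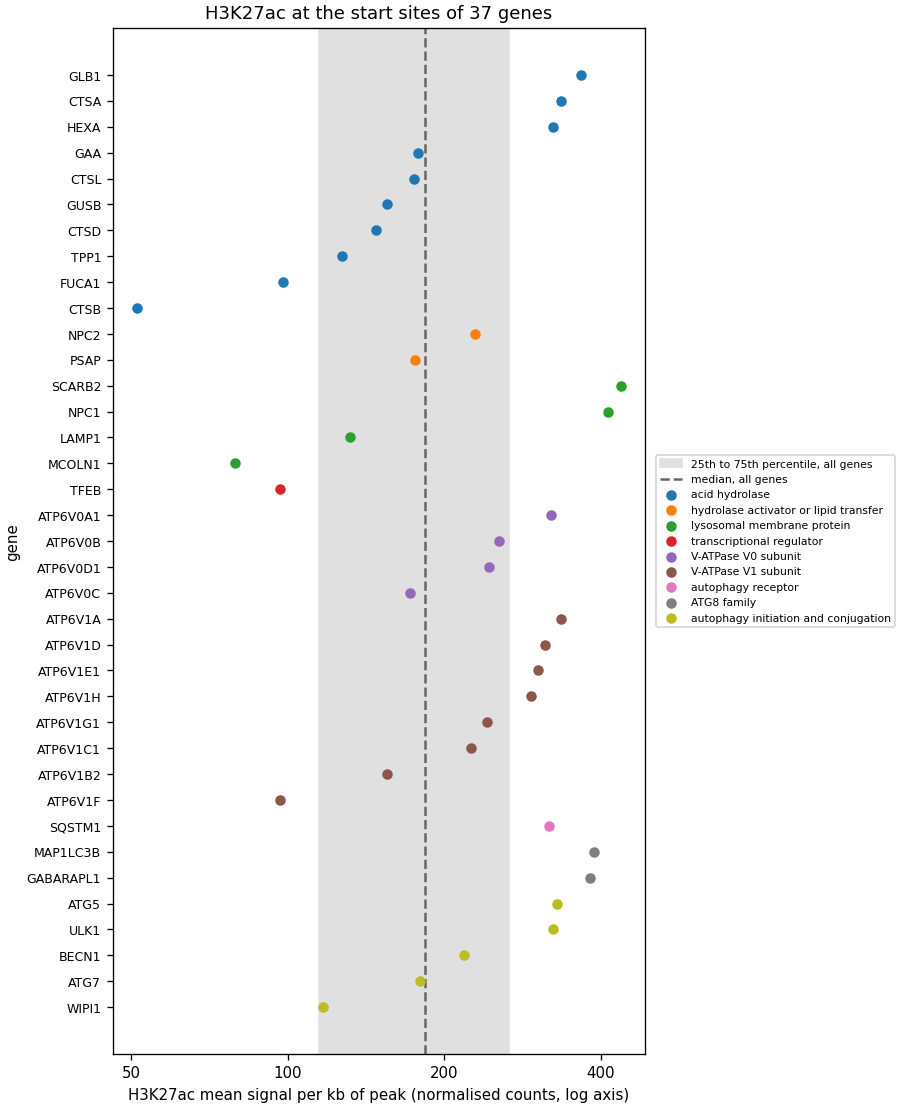
H3K27ac mean signal per kb of peak (log axis, normalised counts averaged by the authors over 6 libraries) for the chosen start-site peak of each of the 37 genes, coloured by role; the band and dashed line give the quartiles (115 and 267) and median (184) of all genes with a peak. CTSB is lowest at 51.3 and SCARB2 highest at 438.

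Among the 10 acid hydrolases, the level spread widely. GLB1 had a mean signal of 1082 over a peak of 2949 bp (chr3:33095631-33098579, hg38), or 367 per kb, higher than 90.2% of genes with a peak. CTSA followed at 335 per kb and HEXA, a subunit of beta-hexosaminidase, at 324. These 3 genes stood apart from the other 7, which lay between 51.3 and 178 per kb, below the median of all genes. CTSB, the protease cathepsin B, had the lowest value of the whole group, with a mean signal of 68.0 over 1325 bp, or 51.3 per kb, and only 4.98% of genes with a peak were lower. FUCA1, a fucosidase, was next among the hydrolases at 98.1 per kb. Of the helper proteins, NPC2, which hands cholesterol on inside the lysosome, had 229 per kb and PSAP, the precursor of the saposins, 176.

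The 4 lysosomal membrane proteins held both the highest and nearly the lowest levels. SCARB2, the receptor that carries beta-glucocerebrosidase to the lysosome, lay in a domain of 23534 bp (chr4:76192649-76216182) with a mean signal of 10299, or 438 per kb, at the 95.3 percentile. NPC1, the cholesterol transporter, had 413 per kb, LAMP1 132 and MCOLN1 79.1. TFEB, listed in the group as a transcriptional regulator, had a mean signal of 251 over 2598 bp, or 96.5 per kb. Only 18.4% of genes with a peak were lower, and TFEB was among the 3 lowest of the group per kb. Its 2 relatives in the list of other pathway genes had 61.7 and 170 per kb. Whether any of these factors regulated the group in these cells was not tested.

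The V-ATPase subunits were more even. Their 12 genes had a median of 250 per kb, with a range of 96.8 to 335. In the V0 sector, ATP6V0C, which encodes the proton-carrying ring subunit, had the highest mean signal, 1879.9, in a broad peak of 10960 bp at 172 per kb, and ATP6V0B the lowest, 715.6, at 255 per kb. Per kb, ATP6V0A1, of the subunit that spans the membrane beside the ring, was highest at 321, with a mean signal of 1770.8, followed by ATP6V0B, ATP6V0D1 at 244 and ATP6V0C. In the V1 sector, ATP6V1A, the catalytic subunit, was highest with a mean signal of 2402 and 335 per kb, and ATP6V1F lowest with 160.0 and 96.8 per kb. The 9 other V-ATPase genes, most of them alternative subunits, had a median of 123 per kb in the 7 with a peak.

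The 8 autophagy genes had a median of 321 per kb. The 29 other autophagy genes, all with a peak, had a lower median of 213 per kb. MAP1LC3B and GABARAPL1, of the ATG8 family, were highest, with mean signals of 3040 and 1360.5 and levels of 389 and 382 per kb. SQSTM1, which encodes the cargo receptor p62, had 2349 in the peak at its upstream start and 2199 in the one over its canonical start, or 318 and 326 per kb. ULK1, the kinase that starts autophagy, had 2093 over 6464 bp, or 324 per kb, and ATG5, a part of the ATG8 conjugation machinery, 329 per kb. WIPI1, a phospholipid-binding protein of the early vesicle, was lowest at 117 per kb, in a peak of 8687 bp. BECN1, a subunit of the autophagy lipid kinase, had 218 per kb at its distal start and 141 at its canonical start, and ATG7, the E1-like enzyme, 180.

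For 12 of the 37 genes, the H3K27ac peak also held the start of another protein-coding gene, so that its signal cannot be assigned to 1 of them; this was so for 26.7% of the genes with a peak. These pairs included GLB1 with TMPPE, CTSA with NEURL2, SCARB2 with FAM47E, ATP6V1A with NAA50, MAP1LC3B with FBXO31, SQSTM1 with MGAT4B and BECN1 with PSME3.

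CTCF was found within 2 kb of a start site in 22 of the 37 genes (59.5%), against 47.6% of all protein-coding genes and 59.7% of those with H3K27ac at a start site. The share was thus close to that of other genes with the mark. The median mean signal of the 22 peaks was 95.0, and 78.5 per kb, beside 84.9 and 81.3 over all genes with a CTCF peak. In 11 genes the mean signal was at least 100, and in 7 it was under 30. In 19 genes the CTCF peak overlapped the chosen H3K27ac peak, and in the other 3, SQSTM1, BECN1 and WIPI1, it overlapped another H3K27ac peak at a start site of the same gene, so that all 22 overlapped one. Both kinds of peak were taken within 2 kb of the same start sites, which favours overlap. The share over all genes is not given here, so the overlap is not a trait of this group.

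TFEB, with little H3K27ac, had the highest CTCF level of the group. Its peak (chr6:41734741-41736266) had a mean signal of 530, or 348 per kb, which 99.1% of genes with a CTCF peak did not reach, and its centre lay 105 bp downstream of the canonical start. FUCA1 followed with 406 and 245 per kb, BECN1 with 380 and 281, NPC1 with 363 and 253, and ATP6V0D1 with 345 and 237. In these 5 genes the centre of the peak lay 44 to 625 bp from the canonical start. GAA at 322 and ATP6V1D at 313 came next. At the other end, CTSD had 9.82 and SCARB2 8.25, and the gene with the broadest H3K27ac domain thus had the weakest CTCF peak.

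**Figure D3:**
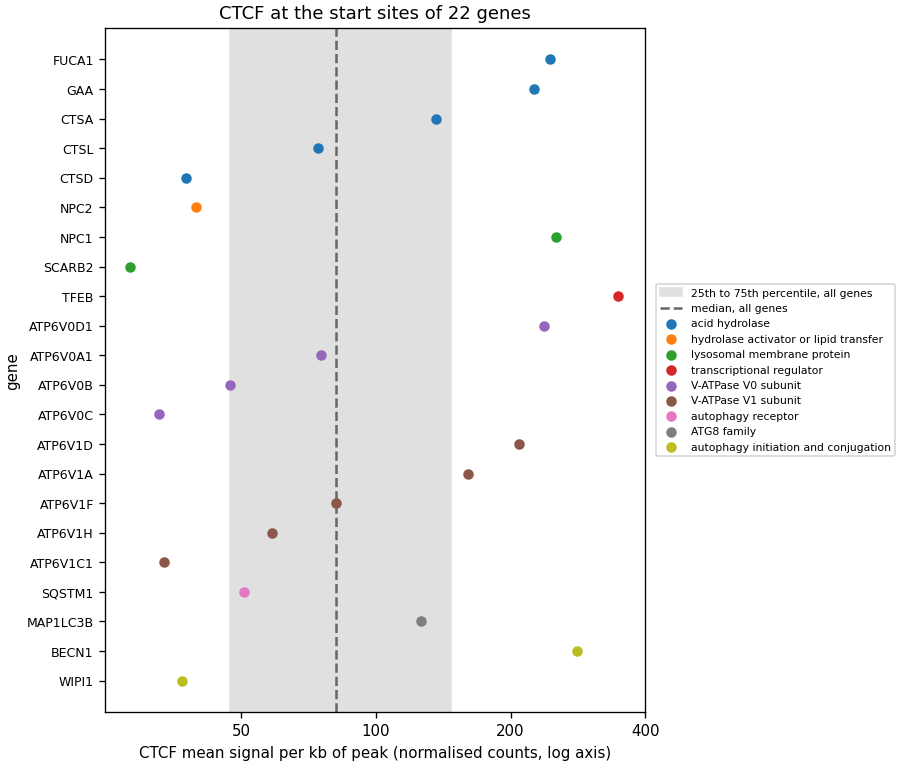
CTCF mean signal per kb of peak (log axis, normalised counts averaged by the authors over 6 libraries) for the 22 genes with a CTCF peak at a start site, coloured by role; the dashed line is the median of all genes with such a peak, 81.3. TFEB is highest at 348 and SCARB2 lowest at 28.2.

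The other 15 genes had no CTCF peak in the window. They were GLB1, CTSB, HEXA, GUSB, TPP1, PSAP, LAMP1, MCOLN1, ATP6V1B2, ATP6V1E1, ATP6V1G1, GABARAPL1, ULK1, ATG5 and ATG7. The nearest CTCF peak lay at a median of 14256 bp from their start sites, from 2551 bp at PSAP, just outside the window, to 69515 bp at ATP6V1E1.

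The core of the CTCF motif, 12 bases searched on both strands with at most 1 mismatch, was found within 200 bases of the peak centre in 6 of the 22 genes (27.3%). It was found in 27.3% of all peaks chosen at start sites and in 41.2% of all CTCF peaks. The study's methods describe a filter of CTCF peaks for the motif. Whether the deposited table precedes that filter is not known here, and motifs farther from the centre or with more mismatches were not searched for, so these shares do not count the peaks that lack a motif. The 6 peaks with the core had mean signals of 28.2 to 530 with a median of 343, and the 16 without it 8.25 to 380 with a median of 57.1. The sites of the 4 strongest of them are shown as 30 bases of hg38, 5′ to 3′ on the strand of the motif, with the core in capitals, so that the match to the core can be seen.
TFEB, chr6:41735618-41735647, plus strand: cctccgcgcCCGGCAGAGGGCagcacccgc
FUCA1, chr1:23868429-23868458, minus strand: ccttcttgaGCACCAGAGGGCgctcctccg
NPC1, chr18:23587041-23587070, minus strand: gcagctgggCCAGCAGGTGGCgaggctccc
GAA, chr17:80101434-80101463, plus strand: ccggagccgCCACTGGGGGGCgtagcgcgg
The NPC1 site matched the core with 0 mismatches and the other 3 with 1. In GAA the core stood just upstream of its first E-box, within the same CTCF and H3K27ac peaks.

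Enhancers, which the authors defined by H3K27ac together with H3K4me1 outside promoters, were nearest to 10 of the 37 genes (27%), against 31.4% of all protein-coding genes, 38.9% of those with H3K27ac at a start site and 37.5% of the 80 other lysosome and autophagy genes. The non-senescent list gave 20 of them and the senescent list 17, at 258 to 87644 bp from a start site. Of these, 16 in each list overlapped an enhancer of the other list. GLB1 had 2 shared enhancers inside its own gene, the stronger of which (chr3:33055864-33059962 in the non-senescent list) had a mean H3K27ac signal of 1027. ATG7 had 3 shared enhancers in its own gene, the strongest with 948, and WIPI1 had 4, at 174 to 351. GUSB had 2 shared enhancers, with signals of 1154 and 424, CTSL 2 with 890 and 171, and TPP1, NPC1 and ATP6V1H 1 each with 143, 167 and 212. Several of these lay inside other genes: the GUSB region of 424 in VKORC1L1, the CTSL region of 890 in DAPK1, that of TPP1 in DCHS1 and that of NPC1 in ANKRD29. Nearness does not show which gene an enhancer acts on. When the nearest gene was sought among all annotated genes, the non-senescent list gave 14 and the senescent list 12. The other 27 genes were the nearest protein-coding gene to none within 100 kb. The farthest enhancer counted lay 87644 bp from ATP6V1H, and the closest one beyond the limit lay 105664 bp from the same gene.

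In the non-senescent list, 4 of the 20 enhancers (20%) overlapped no senescent enhancer, against 29.4% of the whole list. They were nearest to ATG7, SQSTM1, GUSB and ATP6V1C1, and their H3K27ac peaks were weak, with mean signals of 103, 168, 64.4 and 66.0 over both states. The one at SQSTM1 (chr5:179823829-179826963, over an exon of the gene) was the longest, at 3135 bp, and lay 1344 bp from an alternative start site. The others were an intronic region of 500 bp in ATG7 (chr3:11401588-11402087) and intergenic regions of 1316 bp near GUSB and 1467 bp near ATP6V1C1.

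In the senescent list, 1 of the 17 enhancers (5.88%) overlapped no non-senescent enhancer, against 20.5% of the whole list. It lay at WIPI1 (chr17:68450408-68454762, 4355 bp, over an exon), inside the H3K27ac peak that also covers the canonical start of the gene, 2717 bp from the nearest start site. That peak had a mean signal of 1017 over both states. With so few regions, and with lists that hold positions alone, whether a region missing from 1 list differed in signal between the states was not tested.

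The shared enhancers differed in width in both directions. In 16 pairs that matched 1 to 1, the senescent region was wider in 7 and narrower in 9, with a median ratio of width of 0.987, beside 57.1% wider and a median ratio of 1.04 over all 9956 such pairs. The pair at CTSL changed most, from 835 bp in the non-senescent list to 2661 bp in the senescent one. The 2 enhancers of GLB1 measured 4099 and 2687 bp in non-senescent and 3950 and 2676 bp in senescent cells.

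**Figure D4:**
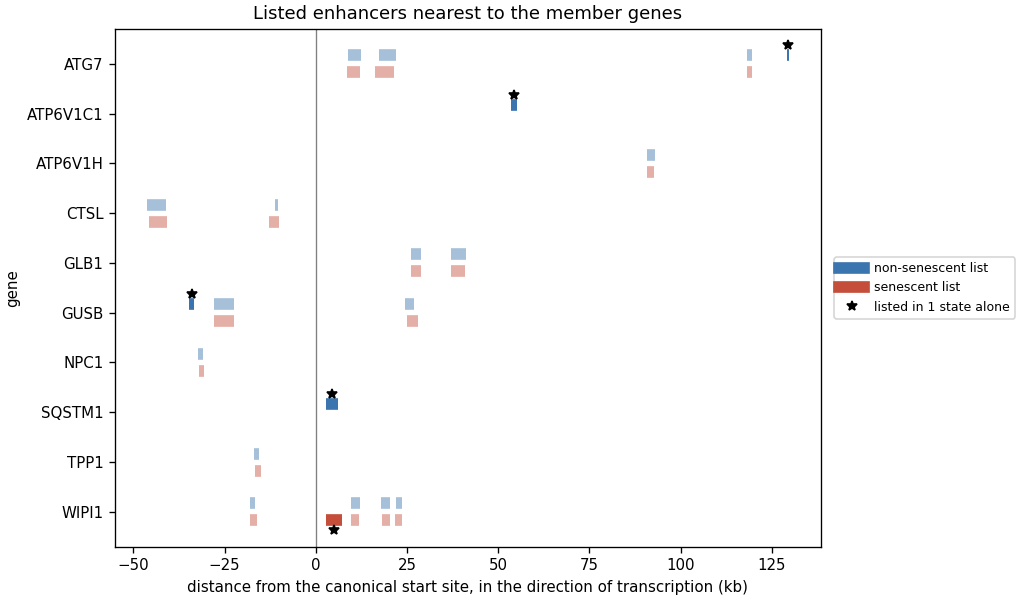
Listed enhancers of the 10 genes that have any, drawn to scale by distance from the canonical start in kb along the direction of transcription (x axis), with the non-senescent list above and the senescent list below for each gene; stars mark regions listed in 1 state alone. The 16 shared regions overlap between the lists, the CTSL pair of 835 and 2661 bp differing most in width, and the starred ones are 4 in the non-senescent and 1 in the senescent list.

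Rb regions called in senescent over non-senescent cells lay within 2 kb of a start site in 2 of the 37 genes (5.41%), against 1.57% of protein-coding genes, 2.33% of those with H3K27ac at a start site and 3.75% of the 80 other lysosome and autophagy genes. Both were short, where the median of all 2435 regions was 249 bp and 7.76% of them were no wider than 50 bp. The authors called these regions at a p-value cutoff that was not adjusted for multiple testing. At GABARAPL1 the region (chr12:10213403-10213452, 50 bp) lay in an intron, with its centre 550 bp downstream of the canonical start. At SCARB2 the region (chr4:76212414-76212447, 34 bp) was intronic as well, 1394 bp downstream. Both lay inside the H3K27ac peak of the gene and outside any CTCF peak. The nearest Rb region to any other gene of the group was 30019 bp from the start of FUCA1, and that of GLB1 was 548121 bp away.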

How the data were processed

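ChIP-seq of EndoC-βH3 cells was processed by the authors. Per the methods, reads were trimmed with Trim Galore and aligned with Bowtie2 to hg38. H3K27ac and H3K4me1 peaks were called with HOMER and CTCF peaks with MACS2, each over input. Rb regions were called with MACS2 over the non-senescent libraries, at an unadjusted p-value cutoff, whereas the cutoff for CTCF was adjusted. Tool versions are not given in the sources used here. The deposited signal is the authors' mean, over both states, of counts in a peak divided by DESeq2 size factors. The tables also hold the authors' log2 fold changes, standard errors, test statistics and p-values for senescent against non-senescent cells, which were not used here. The deposited lists hold positions alone. No depth, spread or test could be computed, and results are counts and levels beside all protein-coding genes.

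Chromosome names matched hg38, and 0 regions ran past a chromosome end. Regions were joined to GENCODE 44 with pandas 2.3.3, numpy 2.4.6 and pysam 0.24.0, with an overlap of at least 1 bp, by code tested on simulated regions. Named genes were the highest and lowest of each role and those with a listed feature. The genes and lists were chosen with earlier results of these data known. ATP6V1A, ATP6V1B2, ATP6V1C1, ATP6V1H, CTSB, HEXA and PSAP had no promoter window.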

Additional observations from a re-analysis of the deposited data

How the results depend on the processing

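Of 20 alternatives, 16 gave a count or median within 1.5 times the value reported. With a minimum mean signal of 50, 14 genes instead of 22 had a CTCF peak at a start site. With the CTCF peak nearest to the canonical start in place of the strongest, the median mean signal was 57.1 instead of 95.0. With a reciprocal overlap of at least 50%, 2 senescent enhancers instead of 1 were listed in senescent cells alone, beside 28.5% of the whole list under that rule. With a window of 1 kb, 1 gene instead of 2 had an Rb region at a start site. The H3K27ac count stayed at 37 under each alternative tried for it. In a window of 500 bases either side of the canonical start, the E-box was found in 7 of the 30 genes (23.3%), BECN1 being the addition, against 2.12% of all genes. No replicate could be left out, and no paired analysis was possible because the tables hold no values per library. Depth could not be weighed for the same reason.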
